A study of Mus musculus with 12 samples.

Results

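Chemokines are small secreted proteins that draw migrating cells along a gradient, and their receptors are G protein-coupled receptors on the cells that respond. Here the chemokine ligands and receptors of the mouse were described in osteoprogenitors sorted from bone. Members were all genes with a probe set of 1 gene symbol whose symbol is Ccl, Cxcl, Ccr, Cxcr or Ackr with a number, or Cx3cl1 or Cx3cr1, except Cxcl12. This gave 49 of the 18193 genes on the array, covered by 79 probe sets, and the probe set with the highest mean over the 12 arrays stood for each gene. By role the 49 were 17 CC ligands, 12 CXC ligands, the CX3C ligand, 15 signalling receptors and 4 atypical receptors.

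The ligand families are named for the spacing of their first cysteines. Inflammatory ligands such as Ccl2 and Cxcl1 are switched on in stromal cells by cytokines through NF-kB, interferon induces Cxcl9 and Cxcl10, and AP-1, the factor of which JUN is a subunit, binds many of these promoters. Atypical receptors (Ackr) bind chemokines without G protein signalling and take them up, carry them or hold them at the cell surface. In bone marrow the best known pair is Cxcl12 and its receptor Cxcr4, which keep blood-forming cells in the marrow.

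Gene expression was measured on 12 arrays, 1 per sample, from 3 osteoprogenitor populations named SSC, CSP and Thy, sorted by flow cytometry from limb bones, skull cap, scapula, vertebrae and ribs of mice that carry inducible JUN. JUN was induced in young animals through doxycycline in the drinking water of the mother, and cells were sorted 2 days later, per the series' design text, which writes BCSP and Thy+ for 2 of the names. Each population had 2 arrays labelled JUN and 2 labelled -JUN, and the labels do not say whether -JUN stands for no doxycycline or for no transgene, nor which cells the inducible construct is active in. No age, sex or strain of the animals is stated, and 5 mice gave the 12 arrays (mice 3, 3b and 10 without JUN, mice 4 and 7 with JUN).

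RefSeq promoter sequences (GRCm38.p6) were found for 36 of the 49 genes. The 250 bases upstream of the start are shown for 4 members: Ackr1, the 1 member that differed between populations, Cxcl14, the member with the largest difference between JUN and -JUN arrays, and Cxcl10 and Cxcl1, in which motifs of the inducing factors were found. Sequences run 5′ to 3′ on the strand of the gene, and capitals mark matches on either strand to an AP-1 motif (TGANTCA), to the NF-kB consensus or to an interferon response element (ISRE, GAAANNGAAA).
Ackr1 upstream, chr1:173333504-173333753, minus strand: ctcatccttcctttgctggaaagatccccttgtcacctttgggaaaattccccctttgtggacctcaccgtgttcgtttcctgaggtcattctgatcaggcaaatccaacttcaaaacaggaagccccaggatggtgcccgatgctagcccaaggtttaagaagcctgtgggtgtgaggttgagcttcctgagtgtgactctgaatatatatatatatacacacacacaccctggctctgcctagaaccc
Cxcl14 upstream, chr13:56296552-56296801, minus strand: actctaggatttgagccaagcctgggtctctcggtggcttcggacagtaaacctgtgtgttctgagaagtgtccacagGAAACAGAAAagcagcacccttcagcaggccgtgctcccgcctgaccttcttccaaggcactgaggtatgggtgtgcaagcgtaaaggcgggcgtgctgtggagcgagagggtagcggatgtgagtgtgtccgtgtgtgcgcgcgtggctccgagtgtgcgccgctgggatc
Cxcl10 upstream, chr5:92348890-92349139, minus strand: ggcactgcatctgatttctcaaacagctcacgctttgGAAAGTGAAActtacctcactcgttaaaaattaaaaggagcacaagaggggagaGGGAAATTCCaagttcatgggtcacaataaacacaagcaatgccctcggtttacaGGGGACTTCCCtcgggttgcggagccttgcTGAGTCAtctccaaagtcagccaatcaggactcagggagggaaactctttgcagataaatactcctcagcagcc
Cxcl1 upstream, chr5:90890995-90891244, plus strand: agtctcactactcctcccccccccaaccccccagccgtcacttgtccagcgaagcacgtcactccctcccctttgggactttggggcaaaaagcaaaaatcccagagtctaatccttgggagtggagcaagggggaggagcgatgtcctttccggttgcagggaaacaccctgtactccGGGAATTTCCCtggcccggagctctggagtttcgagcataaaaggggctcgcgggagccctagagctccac
The Ackr1 window held none of the 3 motifs and the Cxcl14 window 1 ISRE match. The Cxcl10 window held an AP-1 match (TGAGTCA, 74 to 68 bases upstream), an ISRE match and NF-kB matches that in part overlap each other. The Cxcl1 window held a pair of overlapping NF-kB matches between 71 and 61 bases upstream. Across the 36 members with a sequence, NF-kB matches were found in 11 (30.6%), against 8.23% of 27025 genes with a window of the same length. AP-1 matches were found in 4 (11.1%, against 7.82%), which are Ccl9, Ccr3, Ccr4 and Cxcl10. ISRE matches were found in 2 (5.56%, against 3.46%). A match is a run of letters and not a measured binding site.

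Few of the signalling receptors, but all 4 atypical receptors, were measured above the middle of the array. Values are log2 expression values, and the median of an array lay between 7.65 and 7.76. Of the 49 genes, 30 lay below the array median on average and 26 lay below it in every array. Among the 15 signalling receptors 13 were below on average and 12 in every array, while all 4 atypical receptors were above in every array. Of the CC ligands 12 of 17 were below on average, of the CXC ligands 5 of 12. The 14 genes above the median in all 12 arrays were Ccl2, Ccl25, Ccl28, Cxcl1, Cxcl2, Cxcl10, Cxcl14, Cxcl16, Cx3cl1, Cxcr4 and the 4 Ackr genes. This holds for the chosen probe set of each gene. The others of Ackr2 were above in 8 and 7 arrays and that of Ccl25 in 7. Those of Ccl28 were above in 2 and 0, and those of Cx3cl1 in 4, 0 and 0. The other probe sets of Cxcl1, Cxcl14, Cxcl16 and Ackr4 were above in all 12. Over all genes on the array 50.1% were above in all 12. Closest to the mark were Ccl9 and Ccl17, with mean differences from it of -0.0026 and -0.06, and Cxcl13, with 0.25.

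**Figure D1:**
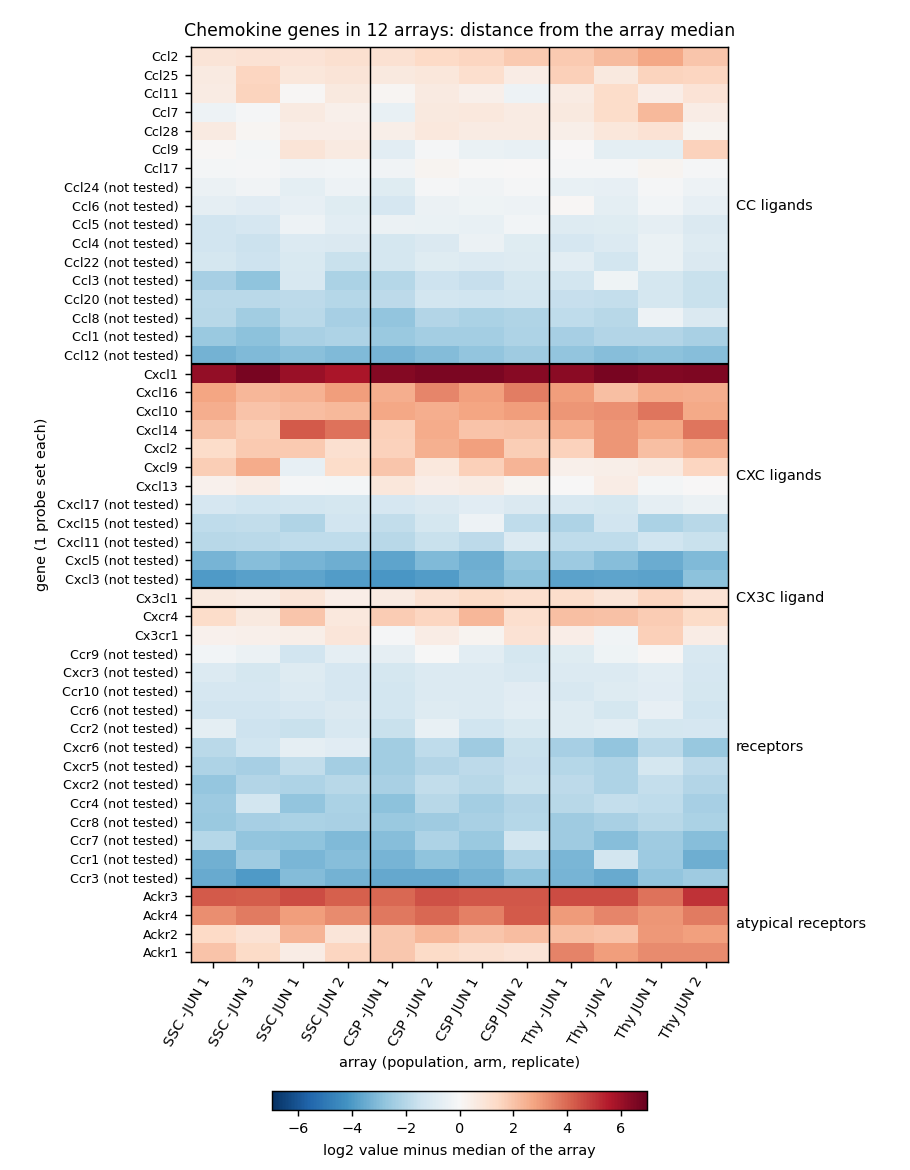
Log2 value minus the median of the array (colour) for 49 chemokine genes (rows, 1 probe set each, grouped by role) in 12 arrays (columns). All 4 atypical receptors and 5 CXC ligands are above the median in every array, and 12 of 15 signalling receptors are below it in every array. Colours compare arrays within a row, since probe sets differ in how brightly they bind.

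Tests used the 12516 genes (68.8%) with a probe set above the array median in at least 2 arrays, among them 21 members (42.9%). The other 28 were dim throughout. Ccl6 and Ccr9 lay above the median in 1 array each, by 0.08 in Thy -JUN 1 and by 0.10 in Thy JUN 1. The highest array of Ccl24, CSP -JUN 2, differed from the median by -0.07 and that of Ccl5, CSP JUN 2, by -0.17. Ccr3, a receptor of eosinophils, had its highest array at -2.47 from the median and Cxcl3, which draws neutrophils, had it at -2.84. A dim probe set cannot show that a gene is off.

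Several members lie side by side in the genome. In the run Ccl2, Ccl7, Ccl11, Ccl12, Ccl8 and Ccl1 on chromosome 11, the first 3 were tested and the other 3 lay below the median in every array. In the run Ccl5, Ccl9, Ccl6, Ccl3 and Ccl4 on the same chromosome only Ccl9 was tested. On chromosome 5, Cxcl1 and Cxcl2 were above the median in all 12 arrays and their neighbours Cxcl3, Cxcl5 and Cxcl15 were below it in all 12. Probe sets differ in how brightly they bind, so this places each probe set on the array and does not compare the genes.

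Some properties of the arrays touch the results below. The titles of SSC -JUN 1, SSC -JUN 3 and SSC JUN 2 carry the same date, and those of SSC JUN 1 and of all CSP and Thy arrays carry none. The labels do not say what the date marks. What it marks can hardly be told apart from the population in comparisons with SSC, and within SSC both -JUN arrays are dated but only 1 JUN array. Jun itself did not follow the labels: it was 13.18 and 12.13 in the arrays labelled JUN against 12.60 and 12.06 in SSC, 12.92 and 12.82 against 13.37 and 13.24 in CSP, where both lay lower, and 13.03 and 12.90 against 12.81 and 13.65 in Thy. It did not pass in any JUN comparison (Jun differed by 0.32, -0.43 and -0.27), and nothing states whether its probe set reads the transgene. Xist was 12.49 to 13.20 in the 3 arrays of mouse 3 and at most 7.29 in the other 9. Those 3 arrays are all labelled -JUN, 1 in each population, so sex as read from Xist was not balanced between the arms. The mean of the poly-A control probe sets, which read bacterial transcripts that can be added to the RNA, was 8.47 to 11.24 in SSC, 9.95 to 11.77 in CSP and 11.33 to 12.28 in Thy, so it moved with the population. It also moved with the arm in SSC (11.24 and 9.95 with JUN against 8.47 and 9.11 without) and in CSP (11.31 and 11.77 against 9.95 and 10.82). In Thy the arms overlapped (12.28 and 11.34 against 11.91 and 11.33). Of the mesenchymal markers 11 of 12 on the array were above the median in every array, and Thy1 was 12.80 to 13.30 in Thy against 7.28 to 9.63 elsewhere. Of 13 leukocyte markers 7, among them Ptprc and Itgam, were below the median in all arrays, while the macrophage genes Lyz2 (7.42 to 9.45) and Cd68 (7.28 to 9.38) were above it in 11 of 12, and the list mean was 6.44 to 6.87 in SSC, 6.55 to 7.15 in CSP and 6.85 to 7.16 in Thy.

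The populations differed in 1 tested member, the atypical receptor Ackr1, which was higher in Thy than in CSP and, in the fit without the mouse as a block, than in SSC. Between SSC and CSP 0 of 21 members passed (adjusted p under 0.05 in limma, 4 arrays against 4, 0.431% of all genes passed), with 2 members and 815 genes at an unadjusted p under 0.05. Between SSC and Thy 1 of 21 passed (0.391% of all genes), with 5 members and 2210 genes at an unadjusted p under 0.05. Between CSP and Thy 1 of 21 passed (0.991% of all genes), with 4 members and 1496 genes at an unadjusted p under 0.05. Counting members whose 4 arrays did not overlap with the other 4, there were 0 for SSC and CSP (4.06% of all genes), 2 for SSC and Thy (9.52%, against 7.59%) and 2 for CSP and Thy (9.52%, against 6.11%). The 2 were Ackr1 and Ccl2, higher in Thy in both comparisons. More members were lower than higher in SSC against Thy (15 of 21, median -0.14, against -0.09 over all genes), in CSP against Thy (15 of 21, -0.18 against -0.04) and in SSC against CSP (14 of 21, -0.31 against -0.05). The comparisons share arrays. With the mouse as a replicate block 8 genes passed between SSC and CSP in place of 54, and 4 between SSC and Thy in place of 49, and the member call between SSC and Thy was lost (0 of 21, Ackr1 adjusted p = 0.107).

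Among the ligands, the macrophage attractant Ccl2 came closest to the threshold. In SSC it was 8.69 and 8.75 without JUN and 8.69 and 8.82 with JUN, in CSP 8.78 and 9.11 without and 9.22 and 9.48 with, and in Thy 9.52 and 9.89 without and 10.38 and 9.58 with. All 4 Thy arrays lay above all 8 others. The mean was 8.74 ± 0.06 in SSC, 9.15 ± 0.29 in CSP and 9.84 ± 0.40 in Thy (SD, n = 4). The log2 difference was -1.10 for SSC minus Thy (SE 0.21, 2.15-fold, limma adjusted p = 0.0514) and -0.69 for CSP minus Thy (SE 0.21, adjusted p = 0.205). The first passed in 5 of 24 alternatives, among them without SSC JUN replicate 1 (adjusted p = 0.0439) and without Thy JUN replicate 2 (0.0437), with a range of 0.0350 to 0.994. Beside this, SSC minus Thy was -0.91 for Lyz2 (adjusted p = 0.141) and 0.70 for Cd68 (adjusted p = 0.228). Cd68 was the only positive 1 of 6 tested leukocyte markers (list median -0.47), and 0 of the 6 passed. Of these markers Coro1a, Laptm5 and Fcer1g lay above the array median in no SSC array. They entered the tests through Thy or CSP arrays alone, so their negative signs for SSC minus Thy follow in part from the filter. The mean of the 7 neutrophil genes was 6.11 to 6.78 in SSC, 6.66 to 7.58 in CSP and 7.08 to 7.51 in Thy, with 0 of 4 tested called. For SSC minus Thy 0 of these 4 were positive (median -1.11, lowest limma adjusted p = 0.0514), and for CSP minus Thy 1 of 4 was (median -0.12). The neutrophil genes S100a8, S100a9 and Ltf lay above the array median in no SSC array. They passed the filter through CSP and Thy arrays alone, so their negative signs for SSC minus Thy follow in part from the filter. The part of the leukocyte and neutrophil genes in the Ccl2 difference was not tested. In a bulk sample more cells of a kind and more RNA per cell cannot be told apart.

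Ccl7, its neighbour on chromosome 11 and likewise a monocyte attractant, was 7.40 and 7.68 without JUN and 8.35 and 8.05 with JUN in SSC. In CSP it was 7.22 and 8.36 without and 8.42 and 8.24 with, and in Thy 8.32 and 8.98 without and 9.96 and 8.16 with. The highest array was Thy JUN 1, and the populations overlapped. SSC minus Thy was -0.98 (SE 0.36, adjusted p = 0.204) and CSP minus Thy -0.79 (SE 0.36, adjusted p = 0.417). Without Thy JUN replicate 1 the second was -0.48, and with the poly-A control mean as a covariate they were -0.055 and -0.45. Ccl11, the eosinophil attractant in the same run, did not share the order: SSC minus Thy was -0.03 (SE 0.29, adjusted p = 0.955). Ccl8, dim in all arrays and not tested, had a mean of 5.58 in SSC and 5.42 in CSP, against 6.40 in Thy. The Thy mean rests on its JUN arrays: Thy was 7.36 and 6.64 with JUN and 5.86 and 5.76 without. The Thy arrays without JUN were level with SSC -JUN 1 (5.80) and SSC JUN 1 (5.83).

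The interferon-induced ligand Cxcl10 had its highest mean in Thy. It was 10.31 and 9.74 without JUN and 9.88 and 9.97 with JUN in SSC. It was 10.44 and 10.25 without and 10.47 and 10.57 with in CSP, and 10.76 and 10.89 without and 11.42 and 10.30 with in Thy. Thy JUN 2 lay within the range of CSP and just under the highest SSC array, so the populations overlapped through 1 array. SSC minus Thy was -0.87 (SE 0.24, adjusted p = 0.128), and without Thy JUN replicate 2 it was -1.08.

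Cxcl14, a ligand made by stromal and epithelial cells, stood lowest in CSP. Its values were 9.83 and 9.49 without JUN and 12.02 and 11.51 with JUN in SSC, 9.38 and 10.28 without and 9.71 and 9.74 with in CSP, and 10.20 and 10.78 without and 10.42 and 11.39 with in Thy. SSC minus CSP was 0.93 (SE 0.43, adjusted p = 0.765) and CSP minus Thy -0.92 (SE 0.43, adjusted p = 0.423). The SSC mean rests on its JUN arrays: in arrays without JUN alone the difference from CSP was -0.17.

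Ccl9 and Ccl11 had higher means in SSC than in CSP. Ccl9, a macrophage-lineage chemokine known to be made by osteoclasts, was 7.85 and 7.62 without JUN and 8.62 and 8.33 with JUN in SSC, 7.00 and 7.64 without and 7.24 and 7.12 with in CSP, and 7.71 and 6.99 without and 7.01 and 9.24 with in Thy. Ccl11 was 8.32 and 9.29 without and 7.80 and 8.40 with in SSC, 7.85 and 8.30 without and 8.06 and 7.28 with in CSP, and 8.24 and 8.96 without and 8.14 and 8.60 with in Thy. Both overlapped between populations. SSC minus CSP was 0.86 for Ccl9 (SE 0.41, adjusted p = 0.795) and 0.58 for Ccl11 (SE 0.29, adjusted p = 0.825). A second Ccl9 probe set, dim in all arrays, gave -0.27, and the Ccl11 value was 0.35 without SSC -JUN replicate 3.

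Of the other ligands above the median in every array, none passed between populations. The neutrophil attractant Cxcl2 ran from 8.82 to 10.77 over the 12 arrays (median 9.57), Cxcl16, the ligand of Cxcr6, from 9.80 to 11.23 (median 10.41), Ccl25, best known from thymus and gut, from 8.16 to 9.34 (median 8.57), and Ccl28, a mucosal chemokine, from 7.87 to 8.72 (median 8.21). The adjusted p over these 4 ligands and the 3 population comparisons was at least 0.307.

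Of the signalling receptors, Cxcr4 and Cx3cr1 could be tested. Cxcr4, the receptor of Cxcl12, ran from 8.42 in SSC -JUN 3 to 10.00 in CSP JUN 1 with a median of 9.34. Its SSC minus Thy difference was -0.61 (SE 0.33, adjusted p = 0.341). Cx3cr1, known from monocytes, macrophages and microglia, ran from 7.42 to 9.35 with a median of 8.14, and its population means lay between 8.09 and 8.26. Cxcr6 was dim in all arrays and not tested, with a mean of 6.56 in SSC, against 5.63 in CSP and 5.27 for Thy.

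The atypical receptor Ackr1, the Duffy antigen receptor that binds many inflammatory chemokines, was the 1 member that passed. In SSC it was 9.74 and 9.08 without JUN and 8.23 and 9.23 with JUN, in CSP 9.64 and 9.03 without and 8.83 and 8.63 with, and in Thy 11.11 and 10.63 without and 11.01 and 10.96 with. Every Thy array lay above every SSC and CSP array, while SSC and CSP covered the same range. The mean was 9.07 ± 0.63 in SSC, 9.03 ± 0.44 in CSP and 10.93 ± 0.21 in Thy (SD, n = 4). CSP minus Thy was -1.90 (SE 0.28, 3.73-fold lower in CSP, limma adjusted p = 0.00816), and SSC minus Thy was -1.86 (SE 0.28, 3.63-fold lower in SSC, adjusted p = 0.0287). SSC minus CSP was 0.04 (95% interval -0.58 to 0.66).

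The call against CSP held in 22 of 24 alternatives, the mouse as a block included (adjusted p = 0.0137), and was lost only in the fits of 1 arm alone, 2 arrays against 2 (-1.54 without JUN, adjusted p = 0.184, and -2.26 with JUN, 0.574; over all 24 from 0.00457 to 0.574). The call against SSC was lost in 10 of 24 alternatives. It was lost with the block (-1.92, limma adjusted p = 0.107), with the poly-A control mean as a covariate, and in fits of the 8 arrays or of 1 arm alone. It was also lost without 1 of 5 arrays: SSC -JUN 3 (0.137), Thy JUN 1 (0.0906), Thy -JUN 1 (0.0743), CSP -JUN 2 (0.0534) or SSC JUN 2 (0.0532). The direction against SSC was kept in all 24 alternatives (adjusted p 0.0197 to 0.857).

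Ackr1 is known from the endothelium of venules and from red blood cells, and markers of such cells were read beside it. The 3 erythroid genes on the array were below the median in all arrays (list mean 6.01 to 6.87). Of 8 endothelial genes 3 were above the median in all arrays, and the list mean was 7.76 to 8.11 in SSC, 8.32 to 9.33 in CSP and 8.07 to 8.89 in Thy, highest in CSP JUN 2. Among the 7 tested, the junction gene Esam was higher in Thy (9.69 to 9.91) than in SSC (SSC minus Thy -1.61, adjusted p = 0.0379) and in CSP (CSP minus Thy -1.67, adjusted p = 0.0142), and the other 6 did not pass in either comparison. Their direction was mixed: for CSP minus Thy 4 of the 7 were positive (Kdr 1.19, Cldn5 0.98, Pecam1 0.81, Cdh5 0.33; list median 0.33), and for SSC minus Thy 1 of 7 was. Pecam1 lay above the array median in no SSC array, so its sign for SSC minus Thy follows in part from the filter. Of 6 pericyte genes 1 passed for SSC against Thy and 3 for CSP against Thy, all higher in Thy. Rgs5 was 13.70 to 14.52 in Thy and 10.13 to 11.97 in SSC and CSP (SSC minus Thy -3.24, adjusted p = 0.000300, CSP minus Thy -2.66, adjusted p = 0.00132), and Mcam and Acta2 were lower in CSP than in Thy (-1.95, adjusted p = 0.00863, and -1.16, adjusted p = 0.0274). Between SSC and Thy the other 5 were mixed, with differences from -0.91 (Mcam) to 0.54 (Myh11) and a list median of -0.14. The list mean of the 6 pericyte genes was 11.86 to 12.47 in Thy, 11.12 to 12.03 in SSC and 10.53 to 11.08 in CSP. With the poly-A control mean as a covariate, CSP minus Thy for Ackr1 was -2.26 (adjusted p = 0.00585) and SSC minus Thy -2.84 (adjusted p = 0.0801). The part of the marker genes in the Ackr1 difference was not tested.

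Ackr2, a scavenger of inflammatory CC chemokines, had its lowest mean in SSC. It was 9.16 and 8.73 without JUN and 10.11 and 8.55 with JUN in SSC, 9.60 and 10.01 without and 9.62 and 9.80 with in CSP, and 9.74 and 9.68 without and 10.72 and 10.52 with in Thy. One SSC array, JUN 1, lay among the Thy values and the other 3 lay below all of them. SSC minus Thy was -1.03 (SE 0.32, adjusted p = 0.161), and -1.32 without SSC JUN replicate 1 (adjusted p = 0.0410; over the alternatives from 0.0410 to 0.9998). The other 2 probe sets of the gene gave -0.92 and -0.88.

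Ackr4, a scavenger of Ccl19, Ccl21 and Ccl25, had its highest mean in CSP. It was 11.01 and 11.37 without JUN and 10.63 and 11.03 with JUN in SSC, 11.41 and 11.70 without and 11.20 and 11.96 with in CSP, and 10.64 and 11.12 without and 10.78 and 11.29 with in Thy. The populations overlapped. SSC minus CSP was -0.56 (SE 0.24, adjusted p = 0.745) and CSP minus Thy 0.61 (SE 0.24, adjusted p = 0.348). The other 2 probe sets went the other way, with 0.08 and 0.14 for SSC minus CSP and -0.19 and -0.27 for CSP minus Thy. Ackr3, which takes up Cxcl12, ran from 11.47 to 12.73 with a median of 12.05, and its population means lay between 11.99 and 12.17.

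**Figure D2:**
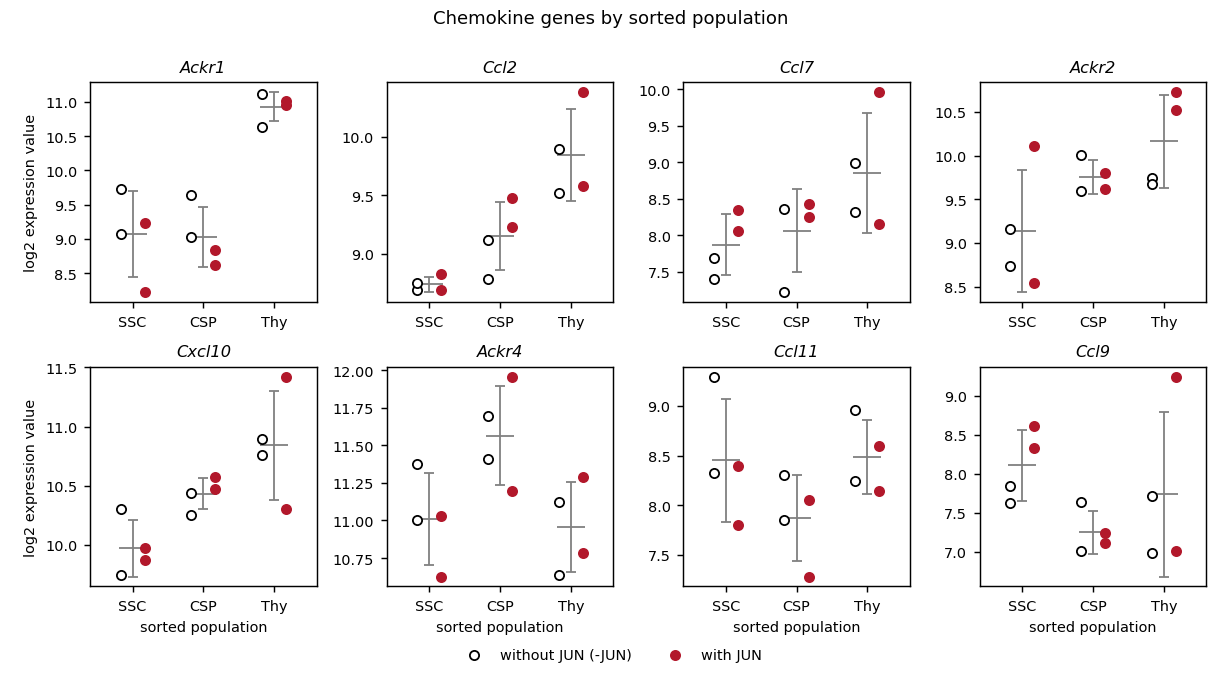
Log2 expression values (vertical axis) of 8 chemokine genes in SSC, CSP and Thy (horizontal axis), 1 point per array, open without JUN and filled with JUN, with the mean and SD of the 4 arrays in grey. The axes start at different values. All 4 Thy arrays of Ackr1 (10.63 to 11.11) and of Ccl2 (9.52 to 10.38) lie above all other arrays, and the populations overlap for the other 6 genes.

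The question of the series is what 2 days of JUN induction do, and no chemokine gene passed for it. JUN and -JUN are the arrays as labelled, and Jun itself was not higher in those labelled JUN in CSP. Of the 21 tested members 0 passed in SSC, CSP or Thy, in the average of the 3 or for a difference of the JUN effect between populations, and over all genes the share that passed was 0 in each of the 5 (limma). At an unadjusted p under 0.05 there were 2 members and 813 genes in SSC, 0 members and 288 genes in CSP, 0 and 380 in Thy, 2 and 1569 for the average and 2 and 144 for the difference between populations. Members with arrays that did not overlap, 2 against 2, numbered 8 of 21 in SSC (38.1%, against 38.4% of all genes), 4 in CSP (19.0%, against 31.2%) and 5 in Thy (23.8%, against 28.6%), which is at or under the share over all genes. The median difference of the members was 0.02 in SSC (0.08 over all genes), 0.07 in CSP (0.07) and 0.14 in Thy (0.04). Each group had 2 arrays, and the average sets 2 mice with JUN against 3 without.

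The largest difference was that of Cxcl14 in SSC. Its values there, 12.02 and 11.51 with JUN against 9.83 and 9.49 without, did not overlap. JUN minus -JUN was 2.10 (SE 0.43, 95% interval 1.16 to 3.05, 4.30-fold), at an unadjusted p of 0.000542 and an adjusted p of 0.690 in limma. In CSP it was -0.10 (interval -1.05 to 0.84) and in Thy 0.41 (interval -0.53 to 1.36), with overlapping arrays. The test of a difference between populations gave F = 7.31 (unadjusted p = 0.0105, adjusted p = 0.9997). A second probe set of Cxcl14 gave 1.53 in SSC, 0.22 in CSP and 0.32 in Thy. Averaged over the populations the difference was 0.81 (SE 0.25, adjusted p = 0.396), and 0.91 with the arrays of each mouse averaged first (adjusted p = 0.351; over the alternatives from 0.146 to 0.9998). The mean of the chondrocyte marker list, beside this, was 13.46 and 10.74 in the JUN arrays of SSC and 11.35 and 10.36 in the others. Its part in the Cxcl14 difference was not tested.

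Cxcl9, an interferon-induced ligand of Cxcr3, went the other way in SSC. It was 7.14 and 9.01 with JUN against 9.48 and 10.33 without in SSC, 9.36 and 10.06 against 9.66 and 8.45 in CSP, and 8.32 and 9.14 against 8.04 and 8.08 in Thy. The JUN arrays lay below the others in SSC, above them in Thy, and overlapped with them in CSP. JUN minus -JUN was -1.83 in SSC (SE 0.63, adjusted p = 0.690), 0.65 in CSP (SE 0.63, adjusted p = 0.995) and 0.67 in Thy (SE 0.63, adjusted p = 0.985). The difference between populations had F = 5.25 (unadjusted p = 0.0267, adjusted p = 0.9997). The value in SSC leans on 1 array: it was -0.89 without SSC JUN replicate 1 and -2.77 without SSC JUN replicate 2, and with the poly-A control mean as a covariate -0.40. In CSP it ran from 0.05 without CSP -JUN replicate 2 to 1.26 without CSP -JUN replicate 1. A second Cxcl9 probe set, dim in all arrays, gave -0.61 in SSC, 0.27 in CSP and, against the first, -0.26 in Thy.

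Cxcl13, the B cell attractant, had lower means with JUN in all 3 populations. It was 7.60 and 7.61 with JUN against 8.07 and 8.24 without in SSC, 8.26 and 7.83 against 8.52 and 8.14 in CSP, and 7.56 and 7.67 against 7.70 and 8.23 in Thy. The arms did not overlap in SSC and Thy and overlapped in CSP. The differences were -0.55 in SSC, -0.29 in CSP and -0.35 in Thy (SE 0.31 each), and the average was -0.40 (SE 0.18, unadjusted p = 0.0490, adjusted p = 0.396). Over the alternatives the average ran from -0.48 to -0.19 and the value in SSC from -0.63 to -0.19. The value in Thy rests on 1 array: it was -0.08 without Thy -JUN replicate 2 and -0.61 without Thy -JUN replicate 1. The second probe set of the gene, dim in all arrays, gave -1.07, -0.24 and -0.26.

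The neutrophil attractant Cxcl1, far above the median in every array, was 13.77 and 13.43 with JUN against 13.90 and 14.39 without in SSC. In CSP it was 14.27 and 14.02 against 14.16 and 14.28, and in Thy 14.17 and 14.18 against 13.97 and 14.34. Only in SSC did the arms not overlap, with a difference of -0.55 (SE 0.30, adjusted p = 0.690), and the other 2 probe sets gave -0.31 and -0.39 there. Without SSC -JUN replicate 3 it was -0.30. Ccl2 differed by 0.40 in CSP (SE 0.33, adjusted p = 0.995), where both JUN arrays lay above the others, by 0.04 in SSC and by 0.27 in Thy. Its value in CSP was 0.24 without CSP -JUN replicate 1. Ccl11 had an average difference of -0.45 (SE 0.26, adjusted p = 0.427), which was -0.29 without SSC -JUN replicate 3, the array of mouse 10, -0.26 without mouse 3b and -0.81 without mouse 3. Ccl9 differed by 0.78 in Thy (SE 0.59, adjusted p = 0.985), a value that turned to -0.33 without Thy JUN replicate 2, and was 0.42 without Thy -JUN replicate 2 and 1.89 without Thy JUN replicate 1.

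The membrane-bound ligand Cx3cl1 and its receptor Cx3cr1 both had higher means with JUN in each population. Cx3cl1 was 8.62 and 8.21 with JUN against 8.45 and 8.33 without in SSC, 9.02 and 8.81 against 8.38 and 8.79 in CSP, and 9.22 and 8.65 against 8.92 and 8.59 in Thy. The arms did not overlap in CSP (0.34, SE 0.32, adjusted p = 0.995, and -0.056 with the poly-A control mean as a covariate). Without CSP -JUN replicate 1 it was 0.13 and without CSP -JUN replicate 2 it was 0.54. The other probe sets of Cx3cl1 gave 0.77, 0.74 and 0.21 in SSC, against 0.02 for the chosen one. They gave 0.55, -0.08 and 0.06 in CSP, and 0.61, 0.60 and 0.26 in Thy, against 0.18 for the chosen one there. Cx3cr1 was 8.14 and 8.59 with JUN against 8.05 and 8.12 without in SSC, 7.87 and 8.65 against 7.62 and 8.21 in CSP, and 9.35 and 8.15 against 8.14 and 7.42 in Thy. Its arms did not overlap in SSC and Thy. The difference in Thy was 0.97 (SE 0.46, adjusted p = 0.985) and ran from 0.37 without Thy JUN replicate 1 to 1.57 without Thy JUN replicate 2. The average was 0.53 (SE 0.27, adjusted p = 0.407), 0.33 without Thy JUN replicate 1 and 0.066 with the poly-A control mean as a covariate. The second Cx3cr1 probe set, dim in all arrays, gave -0.35 in Thy.

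Among the atypical receptors, Ackr1 differed by -0.60 in CSP (SE 0.40, adjusted p = 0.995), where both JUN arrays lay below the others, by -0.68 in SSC and by 0.12 in Thy. The value in CSP was -0.30 without CSP -JUN replicate 1 and -0.91 without replicate 2 of the same group, and -0.060 with the poly-A control mean as a covariate. Ackr2 differed by 0.91 in Thy (SE 0.45, adjusted p = 0.985), where both JUN arrays lay above the others, and by 0.38 in SSC and -0.10 in CSP. Its other probe sets gave 0.39 and 0.48 in Thy, 0.35 and 0.39 in SSC and, against the first, 0.61 and 0.51 in CSP. The tests of a difference between populations gave F = 1.17 for Ackr1 and F = 1.25 for Ackr2 (adjusted p = 0.9997 each).

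**Figure D3:**
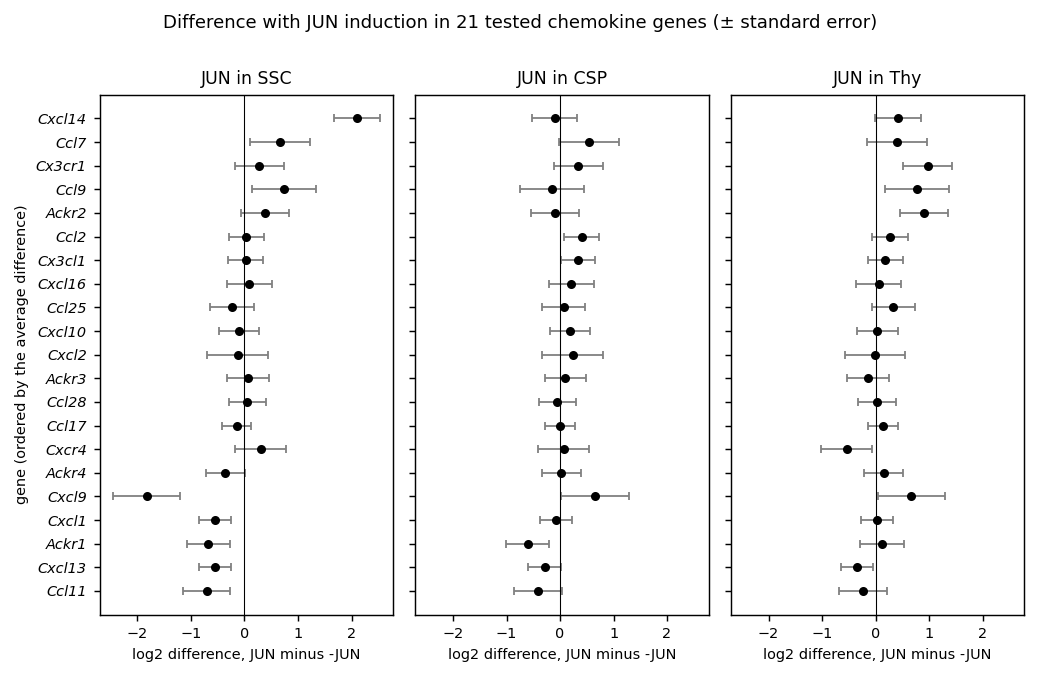
Log2 difference of JUN minus -JUN arrays (horizontal axis, point, bar ± standard error of the limma fit) for the 21 tested chemokine genes (vertical axis, ordered by the average over the populations) in SSC, CSP and Thy, 2 arrays against 2. Cxcl14 (2.10) and Cxcl9 (-1.83) in SSC lie farthest from 0, and no gene passes after adjustment.

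**Figure D4:**
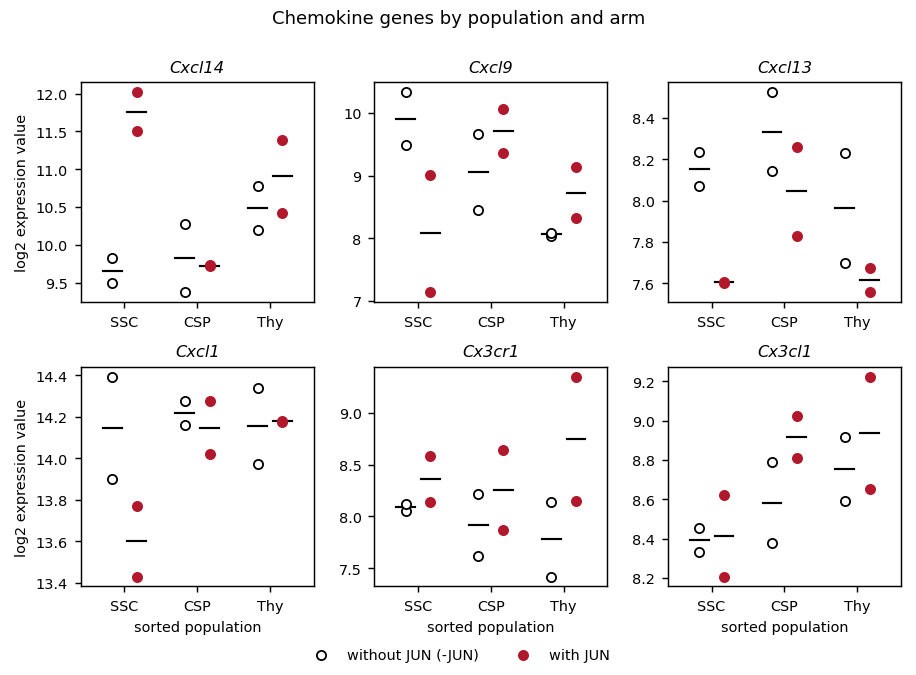
Log2 expression values (vertical axis) of 6 chemokine genes by population (horizontal axis), 1 point per array, open without JUN and filled with JUN, with the mean of each pair as a line. The axes start at different values. The JUN arrays of SSC lie above the others for Cxcl14 and below them for Cxcl9, Cxcl13 and Cxcl1.

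Many members peaked in the same array. Thy JUN 1, from mouse 4, held the highest value of 8 of the 21 tested members (38.1%), among them Ccl2, Ccl7, Cxcl10, Ackr2, Cx3cl1 and Cx3cr1, and of 18 of all 49 (36.7%). Over all genes it held the highest value of 22.3% of those tested and of 26.7% in all, more than any other array in both counts. It also had the highest poly-A control mean (12.28). The part of that array in the higher Thy means can be read from the values without it: SSC minus Thy was then -0.95 for Ccl2, -0.67 for Ccl7, -0.66 for Cxcl10 and -1.76 for Ackr1.

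Of 18 tested genes of the wider chemokine system (other ligands, G proteins, arrestins, proteases and heparan sulphate enzymes) 0 passed in any of the 8 comparisons. Cxcl12, the ligand of Cxcr4 and Ackr3, lay between 10.99 and 12.72, and its SSC minus Thy difference was 0.14 (SE 0.31, adjusted p = 0.820). Dpp4, the protease that trims many chemokines, had its largest difference between CSP and Thy (-1.61, SE 0.47, adjusted p = 0.169). Mif, a cytokine that binds Cxcr4, had an average difference with JUN of 0.63 (SE 0.16, adjusted p = 0.396).

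Of 22 tested genes of NF-kB and its cytokine inputs, 1 passed. Nfkbie, an inhibitor of NF-kB, was lower in CSP (7.57 to 8.15) than in Thy (8.59 to 9.22), by -1.15 (SE 0.24, adjusted p = 0.0416), and 0 passed in the other 7 comparisons. The NF-kB gene list had a median difference of -0.64 for SSC minus Thy, with 5 of 22 genes positive, against -0.09 over all genes. The cytokine receptor gene Il17ra had the lowest p there (-0.79, SE 0.20, adjusted p = 0.102). Of 14 tested interferon response genes 0 passed in any of the 8 comparisons. Their median was -0.30 for SSC minus Thy and -0.0008 for the JUN average, and the antiviral gene Rsad2 had an average difference with JUN of 0.63 (SE 0.19, adjusted p = 0.396). Rsad2 lay above the array median only in Thy JUN 1, Thy JUN 2 and CSP JUN 2. It passed the filter through arrays labelled JUN alone, so its positive difference follows in part from the filter.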

How the data were processed

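Expression was measured on 12 arrays of 3 sorted populations, 2 with and 2 without JUN in each. The files hold log2 expression values per probe set as deposited, between 3.20 and 15.99, and the range is what shows the scale. The submitters' processing notes name RMA; its version is not given in the sources used here. RMA brings all arrays to 1 distribution, which hides a change of total RNA, and compresses differences of dim probe sets. Arrays hold no counts, so their number limits the precision.

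Gene symbols came from the platform annotation: of 45037 probe sets without controls 34945 had 1 symbol, 932 several and 9160 none, and genes were taken from the first kind alone. The Entrez identifier of 34741 was found in a RefSeq gene table, which changed 0 symbols. Members' probe sets with several targets in their design (Cxcl1, Ackr3) may read other transcripts too.

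The tests came from limma 3.58.1 (R 4.3.3) with its moderated linear models, two-sided, with p-values adjusted by Benjamini-Hochberg (over 12516 genes, threshold 0.05). A probe set had to lie above the array median in at least 2 arrays, and the one of highest mean stood for its gene. The population model held population and arm over all 12 arrays (8 residual degrees of freedom), the JUN model 6 group means (6 residual degrees of freedom). Deviations of arrays of 1 mouse from their group means correlated at -0.21 to 0.43. With 2 arrays per group the deviations mirror each other, so the same pair of groups gives the same value in the other mouse. With the mouse as a random block the consensus correlation was 0.0047 for the populations and -0.060 for the JUN average. Same-numbered mice in the titles were taken as the same animal and tried as a block. For mice 3 and 7 the labels do not settle that SSC titles mean the same animal. P-values then speak of the spread among these arrays, which may be technical. The code was tested on simulated data.

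The members and the gene lists were chosen with earlier results of these data known. Values in every array are given for members that passed, the 5 of lowest p in each population comparison and the 4 of lowest p in each JUN comparison. From the other lists a few genes are named, some of them for how they passed the filter. Ccl5, Ccl8, Ccl24 and Cxcr6 were named after their values were seen. Alternatives were the filter, the mean of probe sets, an intensity trend, sex, centring, blocks, subsets of arrays and leaving out each array.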

Additional observations from a re-analysis of the deposited data

Results flagged for a closer look

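In 63 groups of 4 arrays (21 tested members in 3 populations), 2 held an array far from the other 3, where chance gives about 1 in 20 groups. Ccl7 was 7.22 in CSP -JUN 1 against 8.24 to 8.42 in the other CSP arrays, a gap of 0.852 of the range. Cx3cr1 was 8.59 in SSC JUN 2 against 8.05 to 8.14 in the other SSC arrays, a gap of 0.844 of the range.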

How the results depend on the processing

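With the mouse as a replicate block 8 genes passed between SSC and CSP (54 before), 4 between SSC and Thy (49 before) and 125 between CSP and Thy (124 before), and of the members 0 passed between SSC and Thy (1 before); the block changed no other call. The count of members between SSC and Thy was 2 with the filter at 6 arrays, with the mean of probe sets or with median centring, and 0 with the poly-A control mean as a covariate (an alternative chosen after seeing the data), with the 8 arrays compared alone or with either arm alone. Leaving out 1 array it ran from 0 to 3. Between CSP and Thy it was 0 with either arm alone. Genes passing between SSC and Thy numbered 24 with no filter, 75 with the mean of probe sets, 74 with centring, 25 with sex as a covariate, 0 with the poly-A covariate, 16 in the 8 arrays alone, 19 in the arrays without JUN and 0 in those with JUN, and 4 to 304 leaving out 1 array (304 without SSC JUN replicate 1). Between CSP and Thy they numbered 50 with the poly-A covariate, 50 without JUN, 0 with JUN and 52 to 155 leaving out 1 array. Between SSC and CSP they numbered 1 without JUN, 5 with JUN and 17 to 62 leaving out 1 array. For the JUN average 495 genes and 0 members passed without mouse 7, and for JUN in SSC 0 to 1 gene passed leaving out 1 array. Values that turned sign were Cxcl14 between SSC and CSP in arrays without JUN (-0.17), Cx3cl1 for JUN in CSP with the poly-A covariate (-0.056) and Ccl9 for JUN in Thy without Thy JUN replicate 2 (-0.33; leaving out 1 array it ran from -0.33 to 1.89). The cause was not tested; fits of 1 arm or of fewer arrays hold fewer samples.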
